A study of Mus musculus with 6 samples.

Results

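Proteasome genes were taken from the RNA-sequencing of mouse bone-marrow-derived macrophages (BMDMs) by their symbols. Every protein-coding gene whose symbol starts with Psma to Psmg followed by a digit was included, which gave 50 of the 15903 genes tested. They comprise 15 subunits of the core (8 Psma and 7 Psmb genes), 20 genes of the regulatory particle (Psmc and Psmd), 5 genes of the immunoproteasome (Psmb8, Psmb9, Psmb10, Psme1 and Psme2) and 10 others. The rule used no measured change, and all 50 genes reached the count required of a tested gene, 10 in all libraries together. One further symbol of this kind in the table of raw counts, Psmb11, a core subunit of the thymus, had a total count of 0.

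The cells came from bone marrow of 3 Cx3cr1 GFP mice on the C57BL/6J background, so every library, control libraries included, carries a GFP sequence at the Cx3cr1 locus. Marrow cells were grown for 7 days in culture medium with 10 ng/ml of the growth factor M-CSF. Cells were then left unstimulated (control, n = 3) or given 62 mM NaCl on top of the medium for 24 h (NaCl, n = 3), and the adherent cells were used. The control and NaCl libraries of the same number were taken as those of the same mouse. The age and sex of the mice are not given in the sources used here, and a control for osmolarity alone is not analysed here.

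The proteasome degrades proteins that carry ubiquitin. Its barrel-shaped core is built of rings of alpha subunits, which gate the entry, and rings of beta subunits, which carry the catalytic sites. The regulatory particle sits on the barrel, binds ubiquitin, removes it and unfolds the substrate with a ring of ATPases. In immune cells, interferon induces replacement catalytic subunits and the activator PA28, which together shift the peptides made for presentation on MHC class I. Macrophages use the proteasome both for this and for the turnover of regulators of inflammation. Transcription of the subunit genes is known to be raised together by NRF1, encoded by Nfe2l1, when the proteasome is overloaded.

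NRF1 and its relative NRF2 bind the antioxidant response element, so its core letters, TGACNNNGC, were searched on both strands of RefSeq promoters (build GRCm38.p6, from 250 bases before to 50 bases after the start site). A promoter was found for 42 of the 50 genes, and 6 of these (14.3%) held the letters, against 13.99% of all 27025 genes in the table, which also holds non-coding genes. They were Psmb5, Psmb6, Psmc6, Psmd9, Psmd12 and Psme4. The sites that lie wholly before the start site in core and regulatory genes are printed here because the transcript of Nfe2l1 is among the results, with TGACNNNGC or its reverse complement in capitals and each sequence on the strand of its gene.
Psmb5, chr14:54618018-54618058, minus strand, motif from base -47: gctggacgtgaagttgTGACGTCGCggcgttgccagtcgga
Psmb6, chr11:70525332-70525356, plus strand, motif from base -9: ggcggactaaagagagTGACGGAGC
Psmd9, chr5:123228143-123228183, plus strand, motif from base -31: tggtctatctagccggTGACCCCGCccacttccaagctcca
Psmd12, chr11:107479278-107479305, plus strand, motif from base -247: tctGCTGTGTCAcatttgcccccctcag
Psmc6, chr14:45329581-45329621, plus strand, motif from base -227: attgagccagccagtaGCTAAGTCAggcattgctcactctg

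The other letters searched, also on both strands, were those of the CCAAT box (CCAAT) and the GC box (GGCGGG). The core letters of the interferon-stimulated response element (GAAA NN GAAA) and of the interferon gamma activated site (TTCNNNGAA) were searched too. The GC box was in 30 of the 42 promoters (71.4%, against 37.9% of all genes in the table), and CCAAT was in 15 (35.7%, against 41.1%). The core letters of the interferon-stimulated response element were in 5 (11.9%, against 3.99%), namely those of Psmd4, Psmd9, Psmb3, Psmg4 and Psme1. In Psmg4 and Psme1 they lie after the start site. TTCNNNGAA was in 3 (7.14%, against 9.55%), of which the one in Psmb8 lies before an inducible catalytic subunit and is shown with the motif in capitals. In the 42 promoters, 1 pair of different motifs shared bases. A match of letters is no measurement of binding.
Psmb8, chr17:34198082-34198122, plus strand, motif from base -97: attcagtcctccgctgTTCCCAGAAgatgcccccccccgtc

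The libraries differed in depth, with total counts of 8520433 to 20123570 in the control group and of 4088065 to 11610020 in the NaCl group. NaCl replicate 3 was the shallowest and had 1235 tested genes at 0, against 79 to 309 in the other libraries. Proteasome genes took between 0.407% and 0.471% of all counts in each library. All 6 macrophage markers examined were present, and their summed level was 14548 to 15937 CPM (reads of a gene relative to the scaled total of its library) in the control group and 23032 to 30577 CPM in the NaCl group, mostly from Lyz2, which was higher after NaCl (edgeR, adjusted p = 0.0424). Csf1r was also higher, without overlap between the groups and with a log2 fold change of 0.72. Its adjusted p was 0.0523 in edgeR, 2.98e-04 in edgeR with the replicate block and 1.22e-04 in DESeq2 without it. Itgam had a log2 fold change of 0.07, while Adgre1, Cd68 and Fcgr1 were negative, at -0.20, -0.07 and -0.06. T cell and erythroid markers did not reach the count minimum, and B cell and stromal markers summed to under 5 CPM. The summed level of 3 monocyte markers was 95.3 to 218.4 CPM in the control and 42.2 to 267 CPM in the NaCl group, lowest in NaCl replicate 2; whether this bears on the proteasome genes was not tested. The summed level of 8 neutrophil markers was 251.7 to 436.5 CPM in the control and 243.8 to 338.8 CPM in the NaCl group. With the replicate block, edgeR called 2 of the 8 lower, Csf3r with a log2 fold change of -0.90 without the block and Mpo with -0.63 (neither called without the block), and the part of this in the proteasome genes was not tested. Of 7 dendritic cell markers, Itgax made up nearly all of the 784.8 to 1027 CPM. In such bulk libraries, fewer cells with a transcript and less of it per cell cannot be told apart.

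No proteasome gene passed the test between NaCl-treated and control BMDMs in either direction. In edgeR's quasi-likelihood test with Benjamini-Hochberg adjustment over all genes, 0 of 50 were called at an adjusted p under 0.05, where 0.654% of all genes tested were called. With the mouse as a replicate block, 0 of 50 were again called, where 8.9% of all genes were. DESeq2 called 0 of 50 without the block (2.52% of all genes) and 0 of 50 with it (5.07%). At an unadjusted p under 0.05, 1 of 50 was counted by edgeR without the block, against 12.6% of all genes, and 5 of 50 with the block, against 22.1%. The single gene was Psmd8, and with the block it was joined by Psmc6, Psme4, Psmg3 and Psmc3ip. Psmc3ip fell under the fixed rule for naming genes. The names Psmc6, Psme4 and Psmg3 and those of other genes outside that rule were chosen after their values were seen.

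The size of change that these libraries leave possible was narrow for most subunits. The 95% interval of the log2 fold change lay inside a 2-fold change in either direction for all 40 core, regulatory and immunoproteasome genes, and inside a 1.5-fold change for 33 of the 40. With the replicate block, 39 of the 40 lay inside a 1.5-fold change. The lowest bound among the 40 was -0.80, for the scarce Psma8, and the highest was 0.70, for Psmc5. Of the 10 other genes, 7 had intervals inside a 2-fold change, and the exceptions were Psme2b, Psmc3ip and Psmg3. The median log2 fold change was -0.06 over the 50 genes and -0.01 over all genes tested.

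**Figure D1:**
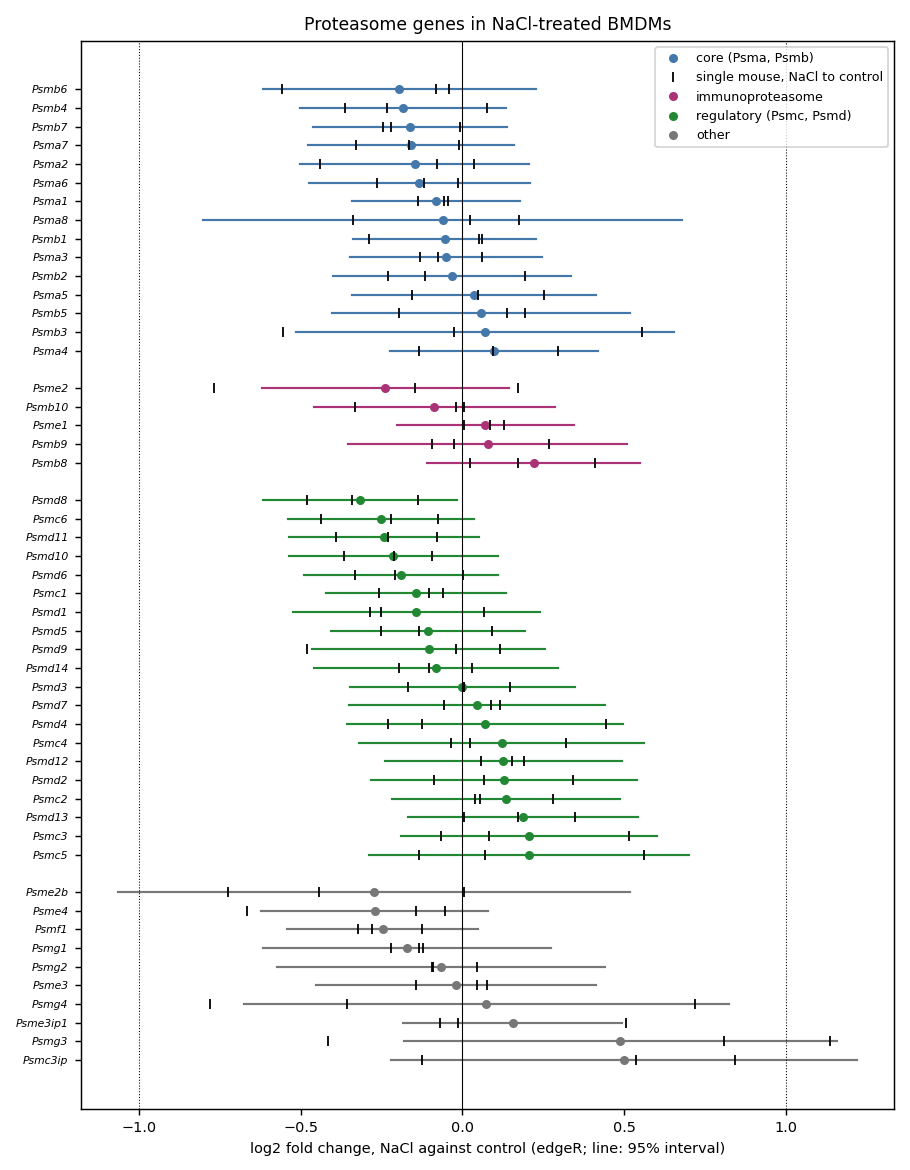
Log2 fold change of each of the 50 proteasome genes (NaCl against control, edgeR, points) with its 95% interval (coloured lines), by class, and the log2 ratio within each of the 3 mice (black ticks). Dotted lines mark a 2-fold change, and only the intervals of Psme2b, Psmc3ip and Psmg3 reach past them.

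The libraries were also compared by their order. No proteasome gene had all 3 NaCl libraries above all 3 control libraries, where 8.92% of all genes did. In the lower direction, 5 of 50 did not overlap between the groups, where 10.1% of all genes did, and these were Psmc6, Psmd8, Psmd10, Psme4 and Psmf1. Within mice, 5 of 50 were higher after NaCl in 3 of 3 animals (Psmb8, Psmc2, Psmd12, Psmd13 and Psme1), where 20.1% of all genes were. In 13 of 50 the NaCl library was lower in 3 of 3 animals, where 23.4% of all genes were. As shares of the 50 genes, these 4 counts come to 0%, 10%, 10% and 26%.

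The alpha subunits form the outer rings of the core. Their log2 fold changes ran from -0.16 to 0.10 with a median of -0.07, and 6 of 8 were negative. Psma4 had the highest value of the core. It was at 84.9, 87.1 and 91.4 CPM in control mice 1, 2 and 3 and at 77.4, 107 and 97.5 CPM in their NaCl libraries. The NaCl libraries stood on both sides of the control values, and the log2 fold change was 0.10 with an SE of 0.14. Psma1 varied little, with 137, 150 and 146 CPM in the control and 133, 137 and 140 CPM in the NaCl group. Psma8, an alpha subunit of the testis, was near the detection limit in all libraries, at 1.18 to 1.56 CPM. The other 7 alpha genes all had means above 40 CPM in both groups.

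The beta rings hold 3 constitutive catalytic sites, which are encoded by Psmb5 (chymotrypsin-like, chromosome 14), Psmb6 (caspase-like, chromosome 11) and Psmb7 (trypsin-like, chromosome 2). Psmb5 was at 38.0, 56.8 and 50.8 CPM in the control and at 41.8, 64.9 and 44.3 CPM in the NaCl group. The groups overlapped, with a log2 fold change of 0.06 (SE 0.21). Psmb6 was at 133, 167 and 141 CPM in the control and at 125, 162 and 95.6 CPM in the NaCl group. It had the lowest log2 fold change of the core, -0.20 (95% interval -0.62 to 0.23), and the lowest of its 6 values was that of NaCl replicate 3. Psmb7 was at 71.6, 91.0 and 84.0 CPM in the control and at 71.3, 78.1 and 70.9 CPM in the NaCl group. All 3 NaCl libraries of Psmb7 were below the one of their own mouse, by 0.01 to 0.24 on the log2 scale, and the groups overlapped. Among the non-catalytic beta genes, Psmb3 varied most, with 55.0 CPM in control and 80.9 CPM in NaCl for mouse 2 but 57.9 and 39.3 CPM for mouse 3. The 7 beta genes had a median log2 fold change of -0.06.

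The inducible subunits Psmb8, Psmb9 and Psmb10 take the places of Psmb5, Psmb6 and Psmb7 when immunoproteasomes are built. Psmb8 and Psmb9 lie on chromosome 17 and Psmb10 on chromosome 8. Psmb8 was at 64.1, 68.3 and 63.9 CPM in the control and at 72.2, 90.7 and 64.9 CPM in the NaCl group. It was higher within each of the 3 mice and had the highest log2 fold change of its class, 0.22 (95% interval -0.11 to 0.55), but edgeR gave an adjusted p of 0.593. Psmb9 was at 35.9, 29.3 and 25.6 CPM in the control and at 35.3, 35.3 and 24.0 CPM in the NaCl group. Psmb10 was at 68.6, 66.1 and 58.0 CPM in the control and at 68.8, 65.3 and 46.0 CPM in the NaCl group. For Psmb9 and Psmb10 the mice did not move together, and their log2 fold changes were 0.08 (SE 0.19) and -0.09 (SE 0.17).

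PA28, the interferon-inducible activator cap, is built of the products of Psme1 and Psme2, both on chromosome 14. Psme1 was at 91.2, 107 and 95.8 CPM in the control and at 99.8, 107 and 102 CPM in the NaCl group, a log2 fold change of 0.07 (SE 0.12). Psme2 was at 86.5, 111 and 92.6 CPM in the control and at 97.4, 65.0 and 83.6 CPM in the NaCl group. The low value of mouse 2 weighed most in its log2 fold change of -0.24 (95% interval -0.62 to 0.14), which was -0.09 without NaCl replicate 2. Psme2b, a near copy of Psme2 on chromosome 11, was also lower in mouse 2, at 4.62 CPM in the control and 2.72 CPM in the NaCl library. In the annotation, 60.2% of the 75-base windows of Psme2b also occur in Psme2 and 22.9% of those of Psme2 in Psme2b. Reads from these windows can be dropped, since only uniquely aligned reads were counted.

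**Figure D2:**
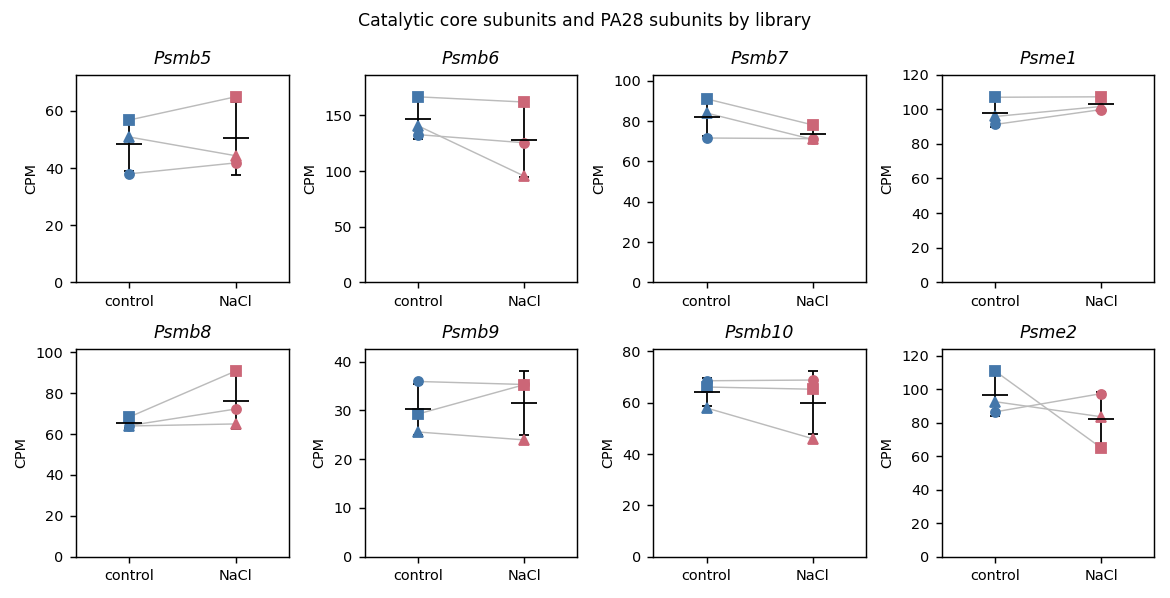
CPM of the constitutive catalytic subunits (Psmb5, Psmb6, Psmb7), the inducible subunits below each (Psmb8, Psmb9, Psmb10) and the PA28 subunits (Psme1, Psme2) in control (blue) and NaCl (red) libraries; circles, squares and triangles are mice 1, 2 and 3, grey lines join a mouse, and black bars give the mean and SD (n = 3). The groups overlap in each of the 8 genes.

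The balance of inducible to constitutive subunits was measured as the log2 ratio of their CPM in each library, with an exact two-sided permutation test over the 20 assignments of libraries, for which 0.1 is the smallest p possible. Psmb8 to Psmb5 was 0.75, 0.27 and 0.33 in the control and 0.79, 0.48 and 0.55 in the NaCl libraries. The mean went from 0.45 ± 0.27 (SD, n = 3) to 0.61 ± 0.16 (SD, n = 3), and the exact permutation p was 0.4 (0.6 adjusted over the 3 ratios). Psmb9 to Psmb6 went from -2.28 ± 0.35 to -2.002 ± 0.19 (SD, n = 3 each; exact permutation p = 0.3, adjusted 0.6). Psmb10 to Psmb7 went from -0.35 ± 0.25 to -0.31 ± 0.29 (SD, n = 3 each; exact permutation p = 0.9, adjusted 0.9). The first and the second ratio were higher after NaCl in 3 of 3 mice, by 0.03, 0.22 and 0.22 and by 0.06, 0.31 and 0.46. The exact sign-flip permutation test within mice gave its smallest possible p, 0.25, for each of these, and 0.75 for the third. These ratios were not divided by length, so their sign does not give which subunit had more transcript. Per exonic base, the mean of Psmb8 to Psmb5 was -1.46 in the control and -1.31 in the NaCl group. Per base of the longest transcript it was -0.41 and -0.25.

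The ATPases Psmc1 to Psmc6 form the ring that unfolds the substrate. Their median log2 fold change was 0.13, with 4 positive and 2 negative values. Psmc5 and Psmc3 had the highest values of the regulatory particle, 0.21 and 0.20. Psmc5 was at 73.7, 96.2 and 99.2 CPM in the control and at 77.3, 142 and 90.3 CPM in the NaCl group, so that its value rested on NaCl replicate 2, without which it was -0.10. Psmc6 was at 90.4, 110 and 105 CPM in the control and at 85.7, 81.2 and 89.8 CPM in the NaCl group. All NaCl values of Psmc6 were below all control values, with a log2 fold change of -0.25 (95% interval -0.54 to 0.04). Psmc6 has the lowest GC content of the 50 transcripts (37.0%). With a trend on GC content and length removed, a correction chosen after the data were seen, its log2 fold change was -0.07. The part of GC content in this difference was not tested.

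The 11 non-ATPase subunits, which bind and cut ubiquitin and scaffold the particle, had 6 positive and 5 negative log2 fold changes with a median of 0.00. Psmd8, a subunit of the lid on chromosome 7, had the lowest value of the 50 genes. It was at 257, 305 and 274 CPM in control mice 1, 2 and 3 and at 234, 240 and 196 CPM in their NaCl libraries. Every NaCl library was below every control library, and the mean was 279 ± 24.3 CPM in the control and 224 ± 23.7 CPM in the NaCl group (SD, n = 3 each). The log2 fold change was -0.32 (SE 0.13, 95% interval -0.62 to -0.02), but the adjusted p in edgeR was 0.371, and 0.0912 with the replicate block. After removal of the trend on GC content and length, a correction chosen after the data were seen, edgeR with the block gave -0.34 with an adjusted p of 0.0122. Psmd8 was then the only one of the 50 genes called, where 13.7% of all genes were called.

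The most abundant subunit transcript by CPM was Psmd2, which encodes a scaffold of the base, with 286, 368 and 341 CPM in the control and 299, 467 and 321 CPM in the NaCl group. The highest value again was that of mouse 2 after NaCl. Psmd14, the deubiquitinase of the lid, was at 78.8, 98.6 and 98.8 CPM in the control and at 68.7, 101 and 92.0 CPM in the NaCl group. Psmd4, a ubiquitin receptor, was at 95.3, 106 and 106 CPM in the control and at 87.4, 144 and 90.6 CPM in the NaCl group. For both genes the control range lay within that of the NaCl group. Psmd12 and Psmd13, both of the lid, were higher in 3 of 3 mice, with log2 fold changes of 0.13 (SE 0.16) and 0.19 (SE 0.16). The 3 chaperones of base assembly that carry Psmd symbols, Psmd5, Psmd9 and Psmd10, had log2 fold changes of -0.11, -0.10 and -0.21. Psmd10, which encodes gankyrin, was at 25.8, 27.0 and 26.6 CPM in the control and at 22.2, 25.3 and 20.6 CPM in the NaCl group, without overlap.

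The 10 other genes include the chaperones of core assembly, Psmg1 to Psmg4, which were among the scarce transcripts. Psmg3 was at 3.87, 5.98 and 8.37 CPM in the control and at 8.72, 10.6 and 6.23 CPM in the NaCl group, and mouse 3 went against the other two. Psmg4 likewise was higher in mouse 2 (11.9 against 19.7 CPM) and lower in mouse 3 (11.2 against 6.47 CPM). Psme4, the activator PA200, was at 134, 138 and 134 CPM in the control and at 121, 87.0 and 129 CPM in the NaCl group. Psmf1, which encodes the regulator PI31, was at 34.5, 33.7 and 33.2 CPM in the control and at 27.5, 27.7 and 30.4 CPM in the NaCl group. Both lay below the control values in each NaCl library, with log2 fold changes of -0.27 (SE 0.16) and -0.25 (SE 0.13). Psme3, the nuclear activator subunit, had a log2 fold change of -0.02. Psmc3ip, which encodes a meiotic recombination factor that is no subunit, had the highest value of the 50, 0.50 (95% interval -0.22 to 1.22), at 3.41 to 10.1 CPM. Psme2b had the lowest value of the 10, -0.27 (95% interval -1.06 to 0.52). Psme3ip1, with a log2 fold change of 0.16, encodes a partner of the Psme3 product.

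Summed over a class, the difference between the group means was smaller than the SD of either group for the core, the regulatory particle and the immunoproteasome. The 15 core genes summed to 1233, 1480 and 1439 CPM in the control and to 1200, 1496 and 1204 CPM in the NaCl group, a ratio of means of 0.939. For the 20 regulatory genes the sums were 2067, 2536 and 2480 CPM in the control and 2034, 2751 and 2223 CPM in the NaCl group, a ratio of 0.989. The 5 immunoproteasome genes summed to 346.3, 381.5 and 335.9 CPM in the control and to 373.6, 363.4 and 320.0 CPM in the NaCl group, a ratio of 0.994. In the core, mice 1 and 2 stayed within 0.04 on the log2 scale, and mouse 3 was at -0.26. In the regulatory class, mouse 2 was at 0.12 and mouse 3 at -0.16. The groups overlapped in these 3 classes.

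**Figure D3:**
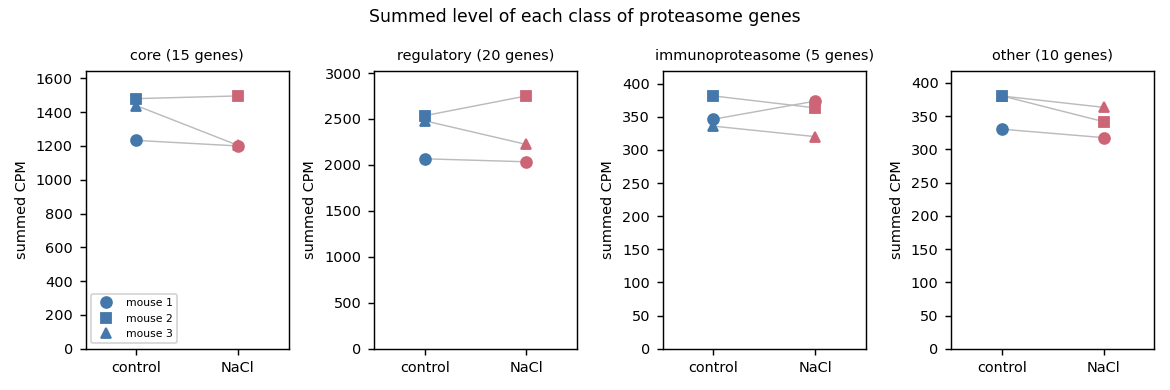
Summed CPM of the genes of each class in control (blue) and NaCl (red) libraries, with lines joining the libraries of a mouse. Both groups overlap in each class, and the core and regulatory sums of mouse 3 are lower after NaCl.

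The 3 mice differed in how the genes were spread. In mouse 1, 25 of 50 genes had a positive log2 ratio of NaCl to control, in mouse 2, 27, and in mouse 3, 9, with medians of -0.00, 0.03 and -0.15. Over all genes tested, 7583, 8114 and 7196 of 15903 ratios were positive. In mouse 3, 0 of 7 beta genes had a positive ratio. NaCl replicate 2 held the highest level of 25 of the 50 genes, control replicate 2 that of 16, and NaCl replicate 3 that of 1. The lowest level was found in control replicate 1 for 17 genes and in NaCl replicate 3, the shallowest library, for 14.

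These ratios also moved with base composition, in a direction that differed between mice. Across the 50 genes, Pearson's r between the within-mouse log2 ratio and the GC content of the transcript was 0.27 in mouse 1, 0.44 in mouse 2 and -0.19 in mouse 3. Across the 5597 genes with a log2 CPM above 5, r was 0.17, 0.47 and -0.18. Genes are not independent replicates and share the library, so these are descriptions. With a trend on GC content and length removed, the median log2 fold change was 0.00 for the core, -0.02 for the regulatory genes and 0.03 for the immunoproteasome, against -0.06, -0.04 and 0.07 before. The part of GC content in the differences between mice was not tested.

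**Figure D4:**
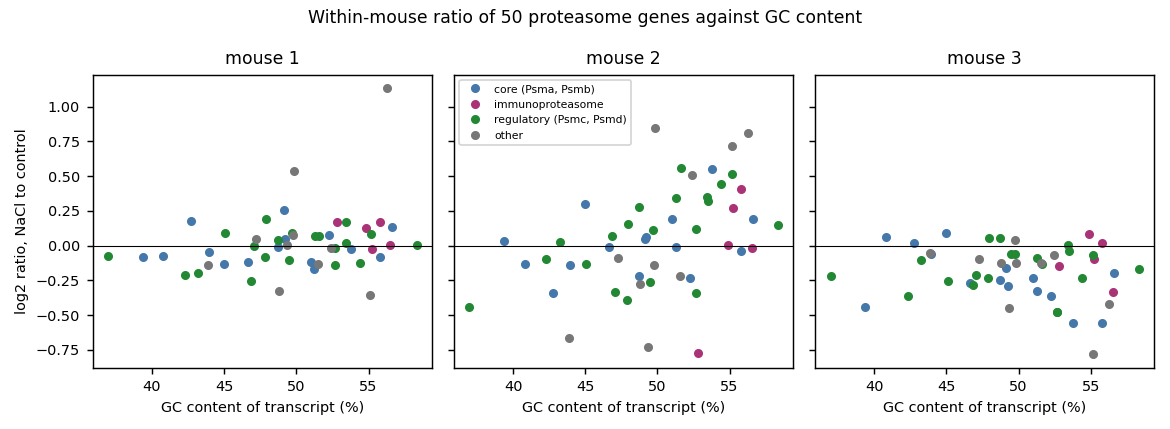
Log2 ratio of NaCl to control within mice 1, 2 and 3 (vertical axis) against the GC content of the transcript (%) for the 50 proteasome genes, coloured by class. The slope is upward in mouse 2 (r = 0.44) and slightly downward in mouse 3 (r = -0.19).

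Levels of different subunits were compared per length, as CPM per kb. Over all exonic bases of the gene, 14 core genes (without Psma8) had a median of 37.4 in the control group and spanned 5.56-fold, from 17.0 for Psma3 to 94.5 for Psma6. Over the longest protein-coding transcript, the median was 73.1 and the span 7.90-fold, from 23.3 for Psma3 to 184 for Psmb6. The 17 regulatory subunits ran from 13.5 for Psmd11 to 91.2 for Psmd8 over exonic bases, with a median of 34.5, and from 30.2 to 141 for the same genes over the longest transcript, with a median of 59.7. Spearman's rho between the control and NaCl levels across genes was 0.98 for the core and 0.96 for the regulatory particle over exonic bases, and 0.96 and 0.91 over the longest transcript. By mean CPM, not divided by length, the median percentile of the proteasome genes among all 15903 genes tested was 85.0, and 44 of 50 lay above the median gene. Of the genes tested, 12665 are protein-coding, so this reference also holds non-coding genes. The choice of length also decided the order of Psmb10 and Psmb7, since Psmb10 was above Psmb7 per exonic base (log2 ratio 0.65 in the control group) and below it per base of the longest transcript (-0.53).

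Counts of several genes can be affected by sequence shared with a copy or by overlap with a neighbour. More than 20% of the 75-base windows recur in another gene for 5 of the 50, namely Psma5 (35.2%), Psmb5 (36.8%), Psmd9 (24.3%), Psme2 and Psme2b, while 27 share no window. Because strand was not kept, reads of Psmb8 cannot be separated from those of the antisense gene over 14.7% of its exonic bases. The same holds for 11.8% of Psmb7, which overlaps Nek6, and for 25.5% of Psmd9. Psmb9 overlaps Tap1, a peptide transporter gene on the other strand, over 5.79% of its exonic bases.

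Genes that build, regulate or feed the proteasome were followed in 4 lists with 44 genes, of which 43 were tested. In edgeR without the block, 0 were called higher and 0 lower, where 0.654% of all genes were called, and 4 of 43 had an unadjusted p under 0.05, where 12.6% of all genes had. With the replicate block, 0 of 43 were higher and 3 were lower. Of all 15903 genes, 732 were called higher and 684 lower, 8.9% in either direction. Counted over both directions, the share of the lists called was below that of all genes, but for lower calls alone it was above. Whether these shares differ was not tested. Nfe2l1, which encodes the transcription factor NRF1, was at 259, 288 and 267 CPM in the control and at 215, 196 and 215 CPM in the NaCl group. Its groups did not overlap, and the log2 fold change was -0.38 (SE 0.12), with an adjusted p of 0.223 in edgeR and of 0.0398 with the block. Pomp, the maturation factor of the core, was at 121, 146 and 154 CPM in the control and at 115, 102 and 102 CPM in the NaCl group. For Pomp the log2 fold change was -0.40 (SE 0.14), with an adjusted p of 0.269 in edgeR and of 0.0462 with the block. In DESeq2 with the block, the adjusted p was 0.0562 for Nfe2l1 and 0.106 for Pomp, so neither passed there.

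Sqstm1, which encodes p62, the adaptor that carries ubiquitinated proteins to autophagy, had the largest change of the 43. It was at 611, 670 and 672 CPM in the control and at 484, 481 and 357 CPM in the NaCl group, lower in 3 of 3 mice and without overlap. The log2 fold change was -0.56 (SE 0.15). The adjusted p was 0.149 in edgeR without and 0.00328 with the block, and 0.0346 in DESeq2 without and 0.00197 with it. Without mouse 3, the fit with the block no longer called Sqstm1, Nfe2l1 or Pomp. Without mouse 1 it called Sqstm1 alone of these 3, and without mouse 2 all 3.

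By list, log2 fold changes of the 12 assembly and associated factors had a median of -0.02, and Pomp was the only one called with the block. The 10 regulators of proteasome gene expression had a median of -0.13, 8 of 10 values were negative, and 7 were lower in 3 of 3 mice, where 23.4% of all genes were. Nfe2l2, which encodes NRF2, was at 232, 178 and 205 CPM in the control and at 221, 146 and 195 CPM in the NaCl group, with overlap and a log2 fold change of -0.13 (SE 0.17). The 12 ubiquitin genes and shuttles had a median of -0.06. Among them Ubb, a polyubiquitin gene, was far higher in NaCl replicate 2, at 415 CPM, than in the other libraries, at 199.8 to 262 CPM. The 9 genes of antigen presentation and interferon control had a median of 0.01, with 0 called by either fit. Of these, Tapbp, the chaperone of peptide loading, did not overlap and was higher, at 221, 214 and 204 CPM in the control and at 283, 279 and 224 CPM in the NaCl group (edgeR, adjusted p = 0.391, and 0.121 with the block). Tap1, the peptide transporter gene, was lower in 3 of 3 mice, at 64.0, 56.8 and 53.9 CPM in the control and at 54.4, 47.9 and 41.2 CPM in the NaCl group (edgeR, adjusted p = 0.475, and 0.154 with the block). Irf1, which carries interferon signals to the Psmb8, Psmb9 and Psmb10 genes, had a log2 fold change of 0.12 (SE 0.18).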

How the data were processed

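Per the labels and the methods, 75 bp single-end reads of polyadenylated RNA (TruSeq v2, no strand information) were trimmed with fastp 0.20.0 and aligned with STAR 2.7.10b. The authors deposited the raw count of uniquely aligned reads per gene, and a normalized signal, which the file shows to be the same counts divided by 1 factor per library; the symbols and gene types were taken from the latter table and the raw counts were tested. The methods name mm10 together with GENCODE vM32, an annotation of a different build, and genes are therefore placed by chromosome only. Lengths, GC content and overlaps come from GENCODE M21, matched by identifier for 97.4% of tested genes and all 50 proteasome genes, and promoters from RefSeq (GRCm38.p6).

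The quasi-likelihood test of edgeR 4.0.16 in R 4.3.3 compared NaCl with control for genes with 10 or more counts in total, with TMM scaling, Benjamini-Hochberg adjustment over 15903 genes and a threshold of 0.05. CPM used TMM-scaled library sizes, and log2 CPM a prior count of 2. SEs and 95% intervals were derived from the quasi-likelihood F statistic and are approximate. The libraries were paired by mouse number, and the blocked value is given where it changes a call. Across genes, the deviations of the 2 libraries of a mouse from their groups' means had correlations of 0.43, 0.15 and 0.22 (other pairs -0.35 to 0.12). NaCl replicate 2 correlated nearly as well with control replicate 3 (0.12) as with its own control (0.15), so these correlations alone do not settle the pairing. Alternatives were DESeq2 1.42.0, limma-voom 3.58.1, the replicate block, other size factors, other filters and leaving out each library or mouse. A loess correction (span 0.5) for GC content and length was chosen after the data were seen. In simulated data with a difference put in between mice, 200 of 15543 genes were changed, each by 2-fold or more. Of these, edgeR called 146 without and 197 with the block, with 0 and 12 false calls. DESeq2 with the block called 189 with 5 false calls. In simulated data without a difference between mice, edgeR called 194 of 200 both without and with the block, with 4 false calls each. Recovery of differences as small as those of the proteasome subunits was not tested.

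The genes, lists and promoter motifs were chosen with earlier results of these data known. The rule named genes past the threshold without or with the block, the immunoproteasome and constitutive catalytic subunits, the extremes of each class, Nfe2l1, Nfe2l2 and Pomp. Psme3ip1 entered by its symbol and was placed with the other genes.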

Additional observations from a re-analysis of the deposited data

How the results depend on the processing

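The count of proteasome genes called was 0 higher and 0 lower under DESeq2, the replicate block, limma-voom, other size factors and other filters, and 1 lower (Psmd8) only under the replicate block in edgeR with the GC content and length correction. Leaving out libraries or mice gave 0 to 1 higher (Psmg3, with the block without mouse 3) and 0 to 2 lower (Psmd8 and Psmb6, with the block without mouse 2). For the 43 pathway genes, the count called lower was 0 in edgeR, 3 with the replicate block, 1 in DESeq2 without and 1 with the block, 1 with a minimum total count of 1, 5 with the block and the correction (Pomp, Sqstm1, Nfe2l1, Mafg and Tap1), and 0 to 4 when libraries or mice were left out. Over all genes, 104 were called in edgeR, 1416 with the block, 400 in DESeq2 and 2174 with the block and the correction. The median log2 fold change of the core ranged from -0.21 (without NaCl replicate 2) to -0.0497 when libraries were left out, that of the regulatory genes from -0.14 (without NaCl replicate 2) to 0.08 (without NaCl replicate 1), and that of the immunoproteasome from -0.03 (without control replicate 3) to 0.08 (without NaCl replicate 3), so the sign of both depended on single libraries. The difference in the Psmb10 to Psmb7 ratio, 0.04 with all libraries, ranged from -0.0882 to 0.198. Of the genes named by the rule, 7 changed sign when single libraries or mice were left out, with ranges over single libraries of -0.266 to 0.0251 for Nfe2l2, -0.0109 to 0.221 for Psma4, -0.192 to 0.0636 for Psmb10, -0.177 to 0.182 for Psmb5, -0.0291 to 0.227 for Psmb9 and -0.103 to 0.38 for Psmc5, and over mice with the block of -0.0201 to 0.197 for Psma4, -0.169 to 0.00055 for Psmb10, -0.0257 to 0.174 for Psmb5, -0.0536 to 0.131 for Psmb9, -0.0309 to 0.33 for Psmc5 and -0.464 to 0.0189 for Psme2. Of their 170 values under the other alternatives, 160 kept direction and side of the threshold, 10 passed it, and 0 changed sign. With all libraries and without the correction, the replicate block changed no call of the 50 genes. With the correction, the adjusted p of Psmd8 in edgeR was 0.193 without the block and 0.0122 with it. The cause of these differences was not tested. Depth limits Psma8, Psme2b, Psmc3ip and Psmg3 most, since the smallest count of any proteasome gene was 6 in NaCl replicate 3.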
